A study of Mus musculus with 4 samples.

Results

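The mitochondrial ribosomal proteins were taken as all gene symbols that start with Mrpl or Mrps followed by a digit, the names of the large and the small subunit of the mitochondrial ribosome. There were 76 such symbols among 23284, 47 of the large subunit and 29 of the small, and all 76 passed the filter on low values, a mean of at least 1 FPKM, which 9380 genes passed. Transcripts were measured by RNA sequencing in macrophages grown from the bone marrow of wild-type mice, which are primary cells. Every culture was given lipopolysaccharide (LPS), the cell wall component of Gram-negative bacteria, at 1 µg/ml for 1 h. For the next 24 h the vehicle group had phosphate-buffered saline and the treated group had recombinant mouse galectin-1, a lectin that binds galactosides; each group had 2 libraries, and LPS was common to both. The comparison asks how galectin-1 alters macrophages that have met LPS. No source used here gives the galectin-1 dose or says whether libraries of a group came from separate animals or cultures. The p-values therefore cover the spread among these 4 samples alone, and that spread may be technical.

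The mitochondrial ribosome makes the few membrane proteins of the respiratory chain and ATP synthase that mitochondrial DNA encodes. Its RNAs come from mitochondrial DNA, whereas all of its proteins are encoded in the nucleus, made in the cytosol and imported. The small subunit reads the messenger RNA, and the large subunit joins amino acids and passes the new protein through an exit tunnel to the inner membrane. Macrophages activated by LPS are known to shift their energy supply toward glycolysis.

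Of the 76 genes, Mrpl44 fell with galectin-1, none rose and 75 did not pass (limma, Benjamini-Hochberg adjusted p under 0.05 over 9380 genes). In all, 1.19% of tested genes were called by this rule, 0.586% of them as lower and 0.608% as higher. Small differences in the negative direction were the more frequent: the log2 fold change was negative for 51 of 76, or 67.1%, against 49.3% of all tested genes. Both galectin-1 libraries lay below both vehicle libraries for 30 members, or 39.5%, where 26.2% of tested genes did so, and above both for 11, or 14.5%, where 29.1% did so. At an unadjusted p under 0.05 there were 15 lower members (19.7%) and 4 higher ones (5.26%), beside 11% lower and 12.2% higher among all tested genes, 23.2% in either direction. The median log2 fold change was -0.08 over the members and 0.00237 over all tested genes. All 76 differences were under 0.5 on the log2 scale. Fold changes here are differences of log2(FPKM + 1), where FPKM counts fragments relative to transcript length and library depth. This scale understates changes of low genes.

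The summed FPKM of the 76 genes was 1489 and 1434 in the vehicle libraries and 1401 and 1399 in the galectin-1 libraries. As a share of all FPKM of a library this was 0.269% and 0.265% with vehicle and 0.251% and 0.252% with galectin-1. The groups did not overlap on either measure. For the sum, however, the vehicle libraries lay farther apart than vehicle replicate 2 lay from the treated ones. The median absolute log2 difference of the members was 0.0839 between vehicle and 0.087 between galectin-1 libraries, and 0.103 between groups. Over all tested genes these values were 0.0674, 0.0703 and 0.0913. In bulk samples, fewer cells with a transcript and less of it per cell cannot be told apart. The library totals ran from 541138 to 557661 FPKM, and the steps of low values put the depth at 0.878 to 1.02 times that of the first vehicle library. Absolute depth is unknown.

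The members differed far more among themselves than between the groups. Mean FPKM over the 4 libraries ran from 1.18 for Mrpl41 to 172.5 for Mrpl52, with a median of 12.7, where the median of tested genes was 9.37. The level at the 90th percentile of the members was 8.28 times that at the 10th, against 49.5 times over all tested genes. FPKM divides by transcript length, and on that basis the levels were set side by side as a description. Values of genes that share exons also depend on read assignment, and 24 of the 76 had an exon that overlapped another listed gene. The part of read assignment in the order of levels was not tested. The plot of FPKM by gene shows the order for each subunit.

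**Figure D1:**
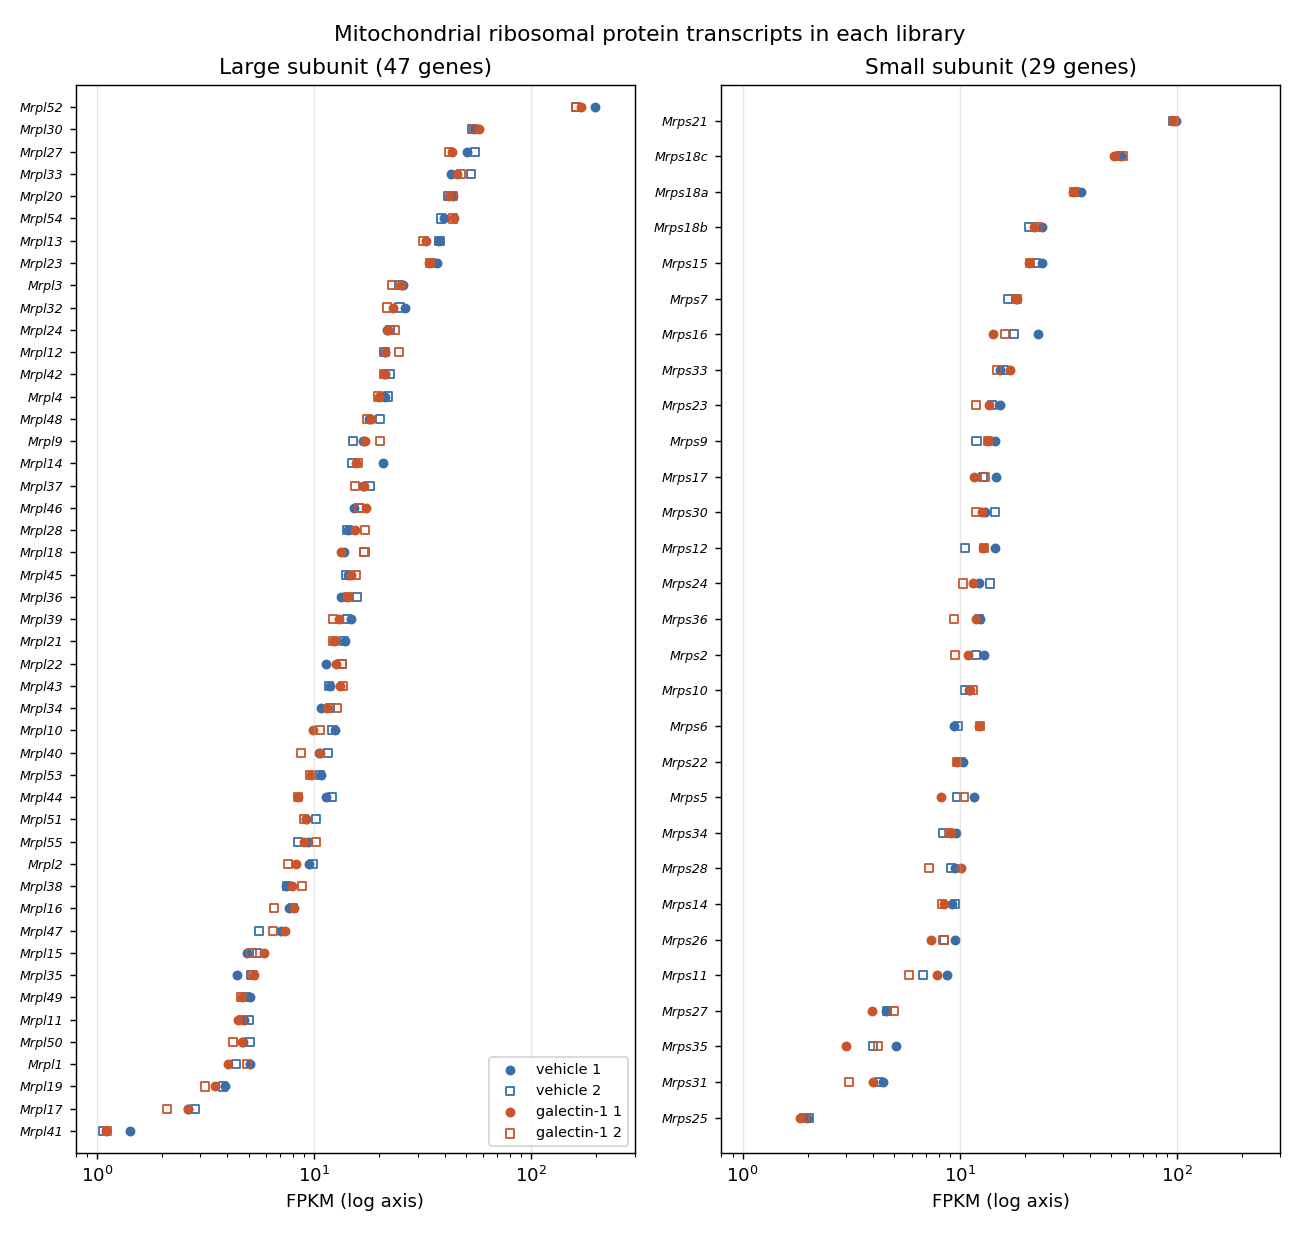
FPKM (log axis) of each mitochondrial ribosomal protein gene in the 4 libraries, with 47 large subunit genes on the left and 29 small subunit genes on the right, in order of mean level. Blue marks are vehicle and orange marks galectin-1; filled circles are replicate 1 and open squares replicate 2. The symbols of a gene lie close together beside a range from 1.18 to 172.5 FPKM between genes.

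In the large subunit the highest transcript was Mrpl52, a protein found in mitochondria and not in bacteria, with 196.7 and 161 FPKM in the vehicle libraries and 170.5 and 162 FPKM in the galectin-1 libraries. The high value of vehicle replicate 1 sets it apart, and the groups overlapped (log2 fold change -0.10, standard error 0.09, limma adjusted p = 0.548). Mrpl30 (55.0 FPKM over the 4 libraries) and Mrpl27 (47.8 FPKM) came next. The lowest were Mrpl41 (1.18 FPKM), Mrpl17 (2.55 FPKM) and Mrpl19 (3.17 to 3.92 FPKM in the 4 libraries). In the small subunit Mrps21 led with 99.0 and 96.2 FPKM in vehicle and 95.8 and 97.0 FPKM in galectin-1 libraries, so its groups overlapped too. It was followed by Mrps18c (54.5 FPKM) and Mrps18a (34.3 FPKM), 2 of the 3 paralogs of 1 bacterial protein. Their sister Mrps18b had 22.4 FPKM in each group and a log2 fold change of 0.00631. The lowest small subunit transcripts were Mrps25 (1.94 FPKM), Mrps31 (3.95 FPKM) and Mrps35 (4.08 FPKM).

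Mrpl44 encodes a large subunit protein with a domain related to RNase III that sits near the exit tunnel. Its transcript had 11.3 and 12.1 FPKM in the vehicle libraries and 8.44 and 8.41 FPKM in the galectin-1 libraries. Both treated values were lower, and they differed from each other by less than the vehicle values did. The group means were 11.7 ± 0.516 and 8.42 ± 0.0221 FPKM (SD, n = 2 per group). This is a log2 fold change of -0.43 (standard error 0.06, limma adjusted p = 0.0453). The adjusted p (limma) was 0.0551 after quantile normalization, 0.137 with no filter on low values and 0.138 without a variance trend. The call was lost in each of these, and also without any 1 of the 4 libraries. Log2 fold changes without a library ran from -0.473 to -0.390. The call held in 6 of the 13 alternative settings described at the end, with adjusted p of 0.0204 to 0.0461. The gene lies on mouse chromosome 1 (GRCm38, 79776018 to 79781445, plus strand), and its first exon overlaps an exon of Wdfy1 on the opposite strand. Wdfy1 had 5.37 and 6.85 FPKM in vehicle and 7.01 and 5.98 FPKM in galectin-1 libraries (log2 fold change 0.08, adjusted p = 0.736). The library kit keeps the strand, but no source used here says whether the deposited values use it.

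Several other large subunit genes had lower values with galectin-1 in both libraries without passing. Mrpl27, a neighbour of the site where peptide bonds form, had 50.8 and 55.0 FPKM in vehicle and 43.2 and 42.0 FPKM in galectin-1 libraries (log2 fold change -0.30, standard error 0.05, limma adjusted p = 0.0562). Mrpl13 had 37.7 and 37.9 FPKM in vehicle and 32.7 and 31.96 FPKM in galectin-1 libraries (-0.22, adjusted p = 0.0650). These 2 genes were below the threshold value of 0.05 when testing was limited to genes averaging 5 FPKM or more, with adjusted p of 0.0434 and 0.0484. With no filter the adjusted p was 0.152 for Mrpl27 and 0.144 for Mrpl13, and with a library left out it was 0.151 to 0.239 and 0.186 to 0.248. Mrpl10, at the base of the flexible stalk that recruits translation factors, had 12.5 and 12.2 against 9.85 and 10.6 FPKM (-0.25, adjusted p = 0.105). Mrpl2, a protein of the large subunit core with a bacterial relative, had 9.48 and 9.87 against 8.25 and 7.59 FPKM (-0.26, adjusted p = 0.108). Mrpl32, whose precursor is cut by an inner membrane protease before it joins the ribosome, had 26.2 and 24.8 against 23.1 and 21.7 FPKM (-0.18, adjusted p = 0.135). In each of these 5 genes the groups did not overlap, but most of them were named for their low fold changes. Lower without overlap were 17 of the 47 large subunit genes (36.2%), beside 26.2% of all tested genes.

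Other large subunit genes lay in the opposite direction. Mrpl54 had 39.8 and 38.6 FPKM in vehicle and 44.2 and 43.7 FPKM in galectin-1 libraries (log2 fold change 0.16, standard error 0.04, limma adjusted p = 0.102). Mrpl43 had 11.9 and 11.7 against 13.1 and 13.6 FPKM (0.17, adjusted p = 0.150), and Mrpl28 had 14.3 and 14.3 against 15.5 and 17.2 FPKM (0.18, adjusted p = 0.179). The largest positive value of the subunit was that of Mrpl9, with 16.8 and 15.2 against 17.2 and 20.1 FPKM (0.21, adjusted p = 0.226). All 4, named for high fold changes, were higher in both treated libraries, as were 8 of 47 large subunit genes (17.0%) and 29.1% of tested genes. The galectin-1 replicates of Mrpl9 and Mrpl28 were farther apart than those of the other pair. Mrpl38 (0.13, adjusted p = 0.326) was also higher in both treated libraries. Mrpl12, the stalk protein itself, had 21.3 and 21.1 against 21.3 and 24.6 FPKM, so that 1 treated library matched the vehicle level (0.10, adjusted p = 0.440).

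In the small subunit the most negative value belonged to Mrps16, the relative of a bacterial small subunit protein, with 22.9 and 17.8 FPKM in vehicle and 14.2 and 16.1 FPKM in galectin-1 libraries. The groups did not overlap, but the vehicle libraries differed by more than vehicle replicate 2 did from the treated ones (log2 fold change -0.39, standard error 0.12, limma adjusted p = 0.139). Mrps2 had 12.99 and 11.9 against 10.97 and 9.48 FPKM (-0.26, adjusted p = 0.153). Mrps24, the relative of a bacterial protein of the messenger entry site, had 12.3 and 13.8 against 11.5 and 10.3 FPKM (-0.24, adjusted p = 0.162). Neither pair overlapped. Mrps31 (-0.24, adjusted p = 0.273) was lower in both treated libraries, and for Mrps35 (-0.27, adjusted p = 0.366) the groups overlapped.

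Mrps6 stood on the other side of the small subunit. It had 9.42 and 9.85 FPKM in the vehicle libraries and 12.2 and 12.4 FPKM in the galectin-1 libraries, with replicates close together and no overlap. Group means were 9.63 ± 0.306 and 12.3 ± 0.130 FPKM (SD, n = 2 per group; log2 fold change 0.32, standard error 0.06, limma adjusted p = 0.0614). Among genes averaging 5 FPKM or more the adjusted p was 0.0465, with no filter 0.151, and with any 1 library left out 0.19 to 0.247. The next highest small subunit values were 0.07 for Mrps7, 0.06 for Mrps10, 0.05 for Mrps12 and 0.04 for Mrps9. Mrps6 lies on chromosome 16 (GRCm38, 92058336 to 92112227, plus strand) and shares exon sequence on the same strand with Slc5a3, the myo-inositol transporter gene. Slc5a3 was between 0.182 and 0.222 FPKM in the 4 libraries, far below Mrps6. Of the 76 genes, 24 had an exon that overlapped another gene listed in the files under its symbol or a RefSeq synonym, 4 on the same strand and 21 on the opposite strand. No source used here says how reads in such overlaps were assigned.

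**Figure D2:**
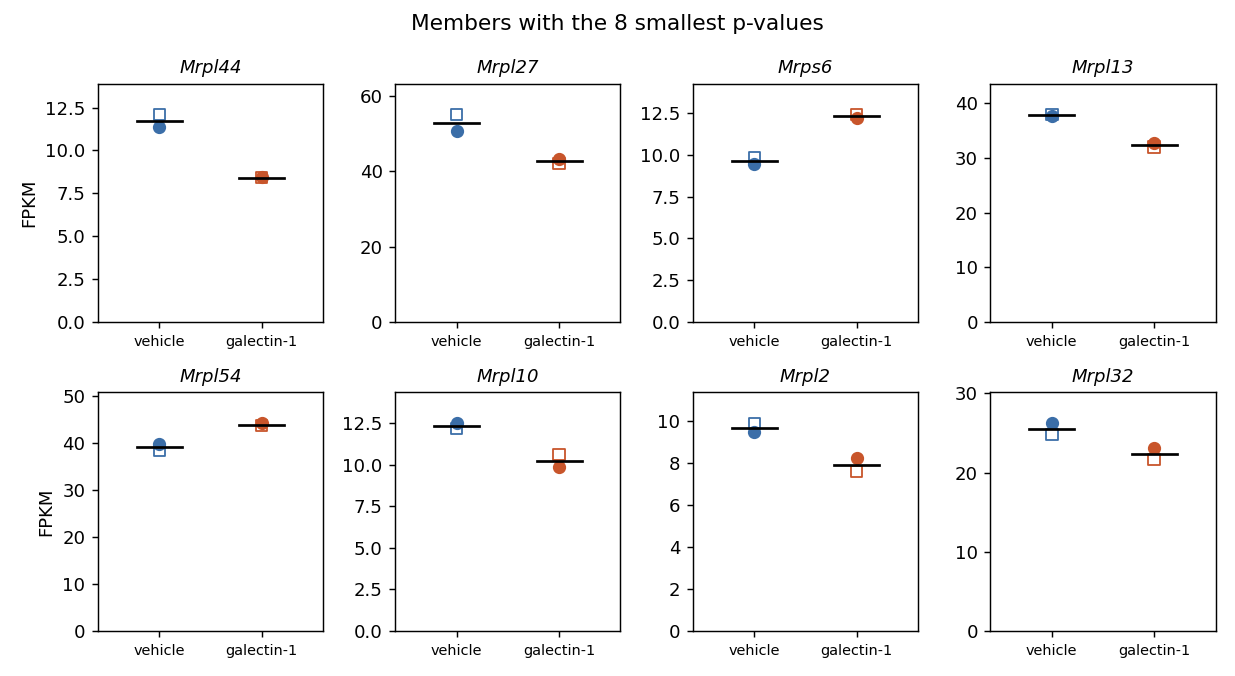
FPKM of the 8 mitochondrial ribosomal protein genes with the smallest p-values, on linear axes from 0. Filled circles are replicate 1, open squares replicate 2 and black lines group means (n = 2 per group). In 6 panels both values are lower with galectin-1, Mrps6 and Mrpl54 are higher, and Mrpl44 (adjusted p = 0.0453) is the gene that passed.

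Set against each other, both subunits had negative medians. The median log2 fold change was -0.07 for the large subunit, with 30 of 47 negative, and -0.10 for the small, with 21 of 29 negative. Lower values without overlap were found for 17 of 47 large (36.2%) and 13 of 29 small subunit genes (44.8%), and higher ones for 8 (17.0%) and 3 (10.3%). Over all tested genes the shares without overlap were 26.2% lower and 29.1% higher. By limma 1 large and no small subunit gene was called, against 1.19% of tested genes. At an unadjusted p under 0.05 there were 13 large and 6 small subunit genes. Lower at that p were 21.3% of large and 17.2% of small subunit genes, and higher 6.38% and 3.45%. Among all tested genes 11% were lower and 12.2% higher, 23.2% in either direction. The large minus small difference of fold change medians was 0.03, below the 0.0578 (SD) by which the difference in median level varied between replicates. With vehicle replicate 1 left out it was 0.00605, and with vehicle replicate 2 left out 0.07. The symbols are not a full guide to the structure: in mammalian mitochondrial ribosomes Mrps30 and Mrps18a lie in the large subunit, and Mrps36 is now assigned to the oxoglutarate dehydrogenase complex. With those moved or left out and the 7 ribosomal proteins under other symbols added, the medians were -0.07 for 52 large and -0.06 for 30 small subunit genes, and their difference was -0.00741.

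Mrps30 had 13.1 and 14.5 FPKM in vehicle and 12.7 and 11.9 FPKM in galectin-1 libraries (log2 fold change -0.15, limma adjusted p = 0.274). Mrps18a had 36.3 and 34.0 against 33.2 and 33.7 FPKM (-0.07, adjusted p = 0.425), and Mrps36 had 12.3 and 12.3 against 11.8 and 9.44 FPKM (-0.20, adjusted p = 0.303). All 3 were lower in both treated libraries by small amounts. None of the 7 ribosomal proteins under other symbols was called, and none had an unadjusted p under 0.05. Of these, Dap3, a GTP-binding small subunit protein first known from cell death, had 3.68 and 3.63 against 3.52 and 3.58 FPKM (-0.03, adjusted p = 0.837). Ptcd3, a small subunit protein that binds RNA, had 5.33 and 5.31 against 4.94 and 4.46 FPKM (-0.15, adjusted p = 0.309). Both were lower in each treated library. The remaining 5 had overlapping groups: Chchd1 (0.15), Aurkaip1 (0.04) and the large subunit genes Gadd45gip1 (0.04), Mrp63 (0.07) and Ict1 (-0.13), the last 2 being older symbols of Mrpl57 and Mrpl58.

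By library, the small subunit had its highest level in vehicle replicate 1. The mean log2(FPKM + 1) over its 29 genes was 3.82 in vehicle replicate 1, 3.72 in vehicle replicate 2, and 3.69 and 3.67 in the galectin-1 libraries. The mean over the 47 large subunit genes was 3.90 and 3.91 with vehicle and 3.86 and 3.86 with galectin-1, with replicates close together. Leaving out vehicle replicate 1 gave a small subunit median log2 fold change of -0.06, and leaving out vehicle replicate 2 gave -0.12. The median was -0.072 with galectin-1 replicate 1 left out and -0.0794 with galectin-1 replicate 2 left out, so it was negative in all 4 cases. Large subunit medians ran from -0.0614 to -0.0472 over the same 4 omissions.

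**Figure D3:**
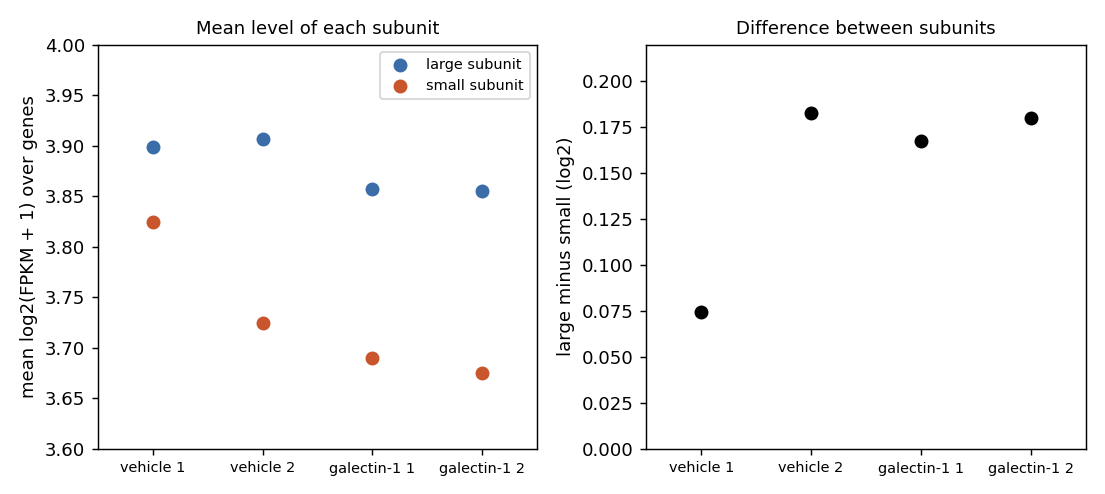
Left, mean log2(FPKM + 1) over the genes of each subunit in each library (axis from 3.6 to 4.0); right, the large minus small difference of these means. Vehicle replicate 1 has the highest small subunit mean (3.82) and a difference of 0.0746, while the other 3 libraries have differences of 0.167 to 0.183.

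The genes were also grouped by origin and place. Of the large subunit, 28 genes with numbers up to 36 are relatives of bacterial ribosomal proteins and 19 were added in mitochondria; their median log2 fold changes were -0.07 and -0.08, and their median levels 15.3 and 10.4 FPKM. In the small subunit, grouped by symbol, 17 genes counted as bacterial relatives had a median log2 fold change of -0.07. The other 12, counted as added in mitochondria, had a median of -0.13, with 10 of the 12 negative. Median levels were 13.1 and 9.01 FPKM. The 12 include Mrps30 (-0.15) and Mrps36 (-0.20), and the 17 include Mrps18a (-0.07), which structures place outside the small subunit. Origin was read from symbols, the medians were not recomputed without these genes, and a difference by origin was not tested. The 5 genes of the stalk and its base (Mrpl10, Mrpl11, Mrpl12, Mrpl53 and Mrpl54) spanned -0.25 to 0.16. The 8 genes around the exit tunnel had 4 negative and 4 positive values, from -0.43 for Mrpl44 to 0.12 for Mrpl47. Mrpl45, which tethers the ribosome to the inner membrane beside Mrpl44, had 14.4 and 14.1 against 14.9 and 15.7 FPKM (0.09, limma adjusted p = 0.357). The 8 genes of the central protuberance (median -0.05) and the 8 of the small subunit head (median -0.06) also held both signs. Each of these 4 places in the ribosome thus had genes on either side of 0.

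Upstream sequences were examined for short motifs of factors known for genes of mitochondrial function. RefSeq promoter windows of 300 bases (GRCm38.p6) around the start matched 67 of the 76 genes, and both strands were searched for exact matches. CCGGAAG, bound by GABP and other ETS factors, was in 32.8% of the 67 and in 20.7% of 6828 tested genes with a window. ATGGCGG, the YY1 core, was in 19.4% against 9.56%, and GCATGCG, part of the NRF1 site, in 11.9% against 7.19%. CACGTG, the E-box of MYC, was in 7.46% against 11%, and TATAAA in 5.97% against 6.87%. Over all 27025 genes with a window the shares were 9.14% for the ETS motif, 4.21% for YY1, 3.65% for NRF1, 7.24% for the E-box and 14.2% for TATAAA. The ETS motif was in 8 of 27 members that were lower without overlap, in 1 of 9 that were higher and in 13 of 31 whose groups overlapped. A match is a description of letters and not of binding.

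Stretches upstream of the start that lie outside annotated exons are shown for 5 genes. Mrpl44 and Mrps6 had the most negative and the most positive log2 fold change, Mrpl10 (NRF1 letters) and Mrpl43 (ETS letters) carry a motif and differed in direction, and Mrpl52 had the highest level. Sequences run 5′ to 3′ on the plus strand of the build for all but Mrpl43, which is on the minus strand, and capitals mark motif letters. They cover chr1:79775840-79775959 for Mrpl44, chr16:92058150-92058269 for Mrps6, chr11:97041440-97041559 for Mrpl10, chr19:45006443-45006557 for Mrpl43 and chr14:54426789-54426908 for Mrpl52.
Mrpl44: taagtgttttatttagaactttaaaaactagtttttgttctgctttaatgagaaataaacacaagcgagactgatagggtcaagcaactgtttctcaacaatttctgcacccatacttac
Mrps6: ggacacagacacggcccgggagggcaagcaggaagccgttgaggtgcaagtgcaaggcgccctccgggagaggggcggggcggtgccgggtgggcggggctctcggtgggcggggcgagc
Mrpl10: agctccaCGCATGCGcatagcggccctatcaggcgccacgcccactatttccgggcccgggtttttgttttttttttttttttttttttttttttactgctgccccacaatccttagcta
Mrpl43: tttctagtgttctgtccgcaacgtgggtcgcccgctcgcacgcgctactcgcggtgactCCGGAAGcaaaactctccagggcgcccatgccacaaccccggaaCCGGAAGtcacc
Mrpl52: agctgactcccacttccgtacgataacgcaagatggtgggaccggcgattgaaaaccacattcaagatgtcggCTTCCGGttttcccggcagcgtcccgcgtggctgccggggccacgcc
The windows of Mrpl44 and Mrps6 hold none of the 5 motifs, in these stretches or in the full 300 bases. Mrpl10 (NRF1 letters) and Mrpl43 (ETS letters) had log2 fold changes of -0.25 and 0.17, and Mrpl52, also with ETS letters, -0.10. As Mrpl10 and Mrpl43 were shown for their opposite directions, they do not compare motif with direction. The 300 bases of Mrpl44 had 42.3% G and C and those of Mrps6 73.7%, beside a median of 58.0% for the members.

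Many of the genes share a start region with a neighbour. Of the 76, 32 (42.1%) had a protein-coding gene on the opposite strand whose start lies within 1000 bases of their own, on either side. The same held for 1459 of 8316 tested protein-coding genes matched by symbol (17.5%). Some of these partners are themselves mitochondrial: Mrps12 pairs with Sars2, a mitochondrial aminoacyl-tRNA synthetase gene, at 172 bases, Mrps27 with Ptcd2 at 81 bases, and Mrpl36 overlaps Ndufs6. Mrpl46 and Mrps11, of the large and the small subunit, overlap at their exons on opposite strands of chromosome 7. Mrpl46 had 15.3 and 16.2 against 17.4 and 16.1 FPKM (log2 fold change 0.08, limma adjusted p = 0.459) and Mrps11 8.70 and 6.75 against 7.86 and 5.83 FPKM (-0.16, adjusted p = 0.588).

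The machinery that builds and serves the mitochondrial ribosome was described from lists. As background for these and the lists that follow, 49.3% of all tested genes were negative. By limma 1.19% were called and 23.2% had an unadjusted p under 0.05, 11% lower and 12.2% higher. Of 24 tested genes for ribosome assembly and modification of its RNA, none was called (limma; 8 at an unadjusted p under 0.05) and 17 were negative, with a median of -0.09. Dhx30, an RNA helicase of assembly, had 7.11 and 8.13 against 5.33 and 5.66 FPKM (log2 fold change -0.41, limma adjusted p = 0.0777). Tfb1m, which methylates the small subunit RNA, had 1.66 and 1.91 against 0.744 and 1.10 FPKM (-0.54, adjusted p = 0.1001). Malsu1, listed as 2410003K15Rik, keeps the subunits apart during assembly and went the other way, with 7.35 and 7.33 against 8.83 and 9.58 FPKM (0.29, adjusted p = 0.0929). These 3 were named for the smallest p-values of the list, and their groups did not overlap. Of the 24 genes, 10 were lower without overlap (41.7%) and 3 higher (12.5%). Over all tested genes these shares were 26.2% and 29.1%.

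Of 20 tested mitochondrial translation factors none was called and 14 were negative (70%, against 49.3% of tested genes), with a median of -0.08. At an unadjusted p under 0.05 (limma) there were 4, with 15% of the list lower and 5% higher. The shares of all tested genes were 11% and 12.2%. Taco1, an activator of translation of the Cox1 messenger, had 3.25 and 2.96 against 1.30 and 1.90 FPKM (-0.67, limma adjusted p = 0.0745). Slirp, listed as 1810035L17Rik, which stabilises mitochondrial messengers, had 93.4 and 93.2 against 103.6 and 108.7 FPKM (0.18, adjusted p = 0.0747). Tsfm, an elongation factor, had 3.77 and 4.50 against 3.02 and 2.71 FPKM (-0.41, adjusted p = 0.106). Of the 20 tested genes for mitochondrial transcription and RNA processing, 12 were negative (60%) and none was called. At an unadjusted p under 0.05 (limma) there were 5, all lower (25%). The packaging and transcription factor Tfam had 5.56 and 5.42 against 3.91 and 3.98 FPKM (-0.39, adjusted p = 0.0640). Of 10 tested mitochondrial aminoacyl-tRNA synthetases, 5 were negative (50%) and none was called. At an unadjusted p under 0.05 (limma) there were 2, both lower (20%). Hars2 had 3.93 and 3.35 against 2.18 and 2.22 FPKM (-0.53, adjusted p = 0.0638).

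Among 9 tested regulators of nuclear genes for mitochondria, none was called (3 at an unadjusted p under 0.05). Esrra, a nuclear receptor, had 10.1 and 10.4 against 13.1 and 12.4 FPKM (log2 fold change 0.29, limma adjusted p = 0.0780), and Yy1 had 16.7 and 17.1 against 20.2 and 19.9 FPKM (0.23, adjusted p = 0.0767). Gabpb1, a subunit of GABP, had 18.6 and 16.1 against 13.9 and 14.4 FPKM (-0.28, adjusted p = 0.118). Nrf1, named for its motif, had 8.21 and 8.21 against 7.71 and 7.98 FPKM (-0.06, adjusted p = 0.605).

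Other mitochondrial and ribosomal genes were set beside these values. Of 20 tested genes for abundant mitochondrial proteins, 14 were positive with a median of 0.02; Vdac2, a channel of the outer membrane, rose from 103.3 and 105.5 to 122 and 121 FPKM (log2 fold change 0.22, limma adjusted p = 0.0485), and 19 did not pass. The genes taken by symbol pattern as nuclear-encoded respiratory chain and ATP synthase genes had a median of 0.03 with 50 of 79 positive. At an unadjusted p under 0.05 (limma) 8.86% were higher and 6.33% lower, beside 12.2% and 11% of all tested genes. The 1 gene called was Ndufs5. That gene was at 0.0208 and 0.0103 FPKM in vehicle and 9.31 and 18.9 FPKM in galectin-1 libraries. It passed the filter of a mean of at least 1 FPKM through the galectin-1 libraries alone. The part of read assignment in its values was not tested. The cytosolic ribosomal proteins had a median of 0.05 with 73 of 80 positive and none called (limma; 17 at an unadjusted p under 0.05, all higher). Their summed FPKM was 50630 and 49660 in vehicle and 52390 and 51450 in galectin-1 libraries, while that of the mitochondrial ribosomal proteins was lower in the treated libraries, as given above. Median levels were 47.3 FPKM for the abundant mitochondrial proteins and 61.3 FPKM for the respiratory chain list. They were 622 FPKM for the cytosolic and 12.7 FPKM for the mitochondrial ribosomal proteins. The part of level in the fold change medians was not tested, and no test of these lists against each other was made. The symbol pattern for genes of mitochondrial DNA matched 0 symbols. These genes, the ribosomal RNAs among them, were not analysed here.

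**Figure D4:**
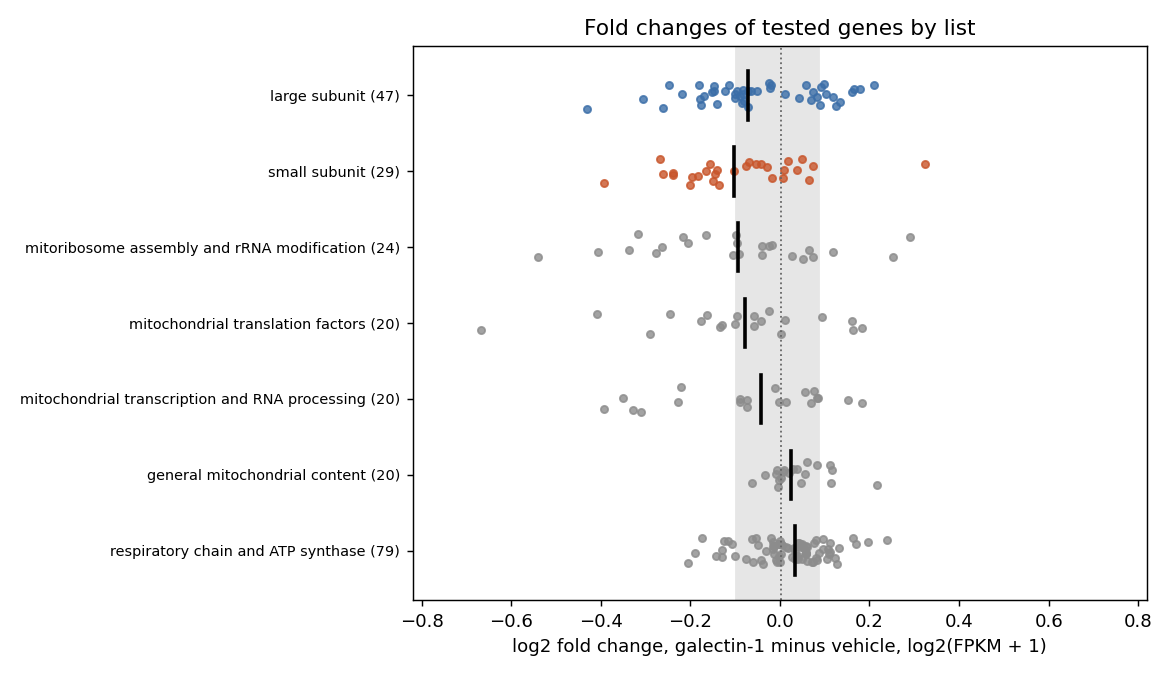
Log2 fold change (galectin-1 minus vehicle) of each tested gene, by list, with the number of genes in parentheses. Black bars are list medians, the dotted line is the median of all 9380 tested genes and the grey band their middle 50%; 1 respiratory chain gene, Ndufs5, lies outside the axis. The bars of both subunits (-0.07 and -0.10), assembly (-0.09), translation factors (-0.08) and transcription and RNA processing (-0.04) lie left of the dotted line. Those of general mitochondrial content (0.02) and the respiratory chain (0.03) lie right of it. Median levels of the lists ran from 2.24 FPKM (translation factors) to 61.3 FPKM (respiratory chain). The part of level in the bars was not tested.

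Markers of the cultured cells were measured beside these genes. All 10 macrophage markers were tested; they summed to 9760 and 9745 FPKM in vehicle and 10550 and 10540 FPKM in galectin-1 libraries, with 9 positive and none called (limma; 7 at an unadjusted p under 0.05). Of 7 dendritic cell markers 3 were tested: Fscn1 fell (log2 fold change -0.47, limma adjusted p = 0.0425), and Ccl22 (-0.27) and Ccr7 (-0.12) did not pass. The untested Flt3, Zbtb46, Dpp4 and Itgae had at most 0.32 FPKM in any library, and their means were higher with galectin-1. Sums over all 7 were 22.3 and 22.3 against 16.8 and 17.5 FPKM. Of 8 fibroblast markers 5 were tested, all 5 positive and none called (1 at an unadjusted p under 0.05). Sums over all 8 were 16.6 and 16.4 against 20.4 and 20.6 FPKM. The T and NK cell list had no tested member and at most 0.199 FPKM in sum, with Cd3e, Cd3g and Nkg7 at 0 in the 4 libraries. The neutrophil list had 1 tested member of 8, S100a8, with sums of 1.34 to 2.92 FPKM and Elane, Ngp and Ltf at 0, and the B cell list 1 of 5, Cd79b, with sums of 2.61 to 3.598 FPKM. Of 10 tested proliferation genes 9 were positive and none was called (3 at an unadjusted p under 0.05). Neat1 and Malat1, nuclear RNAs, summed to 191.7 and 202.7 FPKM in vehicle and 112 and 123 FPKM in galectin-1 libraries, and Neat1 fell (log2 fold change -1.17, adjusted p = 0.00174). The part of these markers and RNAs in the values of the mitochondrial ribosomal proteins was not tested.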

How the data were processed

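The 4 RNA sequencing libraries of macrophages, 2 per group, were grouped by their titles. The authors deposited FPKM values, 1 for each symbol in each library. Tools listed, without roles, by the submitters' processing notes are Cufflinks 2.2.1, TopHat2 2.0.13, SAMtools 0.1.19 and Bowtie2 2.2.3, with build mm10. No source used here gives the annotation, the use of strand or any normalization between libraries. RNA was made into libraries with a stranded messenger kit, per the labels' protocols. FPKM holds no counts, so no count model was used, and values of overlapping or near-identical genes depend on read assignment.

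The values were used as log2(FPKM + 1). The 9380 genes averaging 1 FPKM or more entered a limma fit (version 3.58.1, R 4.3.3) with a variance trend, tested 2-sided at a Benjamini-Hochberg adjusted p under 0.05 over all of them; 2 residual and 3.89 prior degrees of freedom were available. With 2 libraries in each group an exact permutation test reaches p = 0.333 at best and was not used. Of 1366 genes under 0.3 FPKM in all libraries, 240 to 259 shared the most frequent ratio to vehicle replicate 1 (within 0.015 as a natural log), which gave relative depth. Coordinates are from RefSeq GRCm38.p6 and overlaps from GENCODE, both of the mm10 build. All 76 members matched RefSeq. Of 351 listed or patterned symbols, 350 were found directly or under a synonym.

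The members, lists, tests and alternatives were chosen with earlier results of these data known. Named were members past the threshold, the 5 highest and 5 lowest fold changes and 3 highest and 3 lowest levels per subunit, 10 fixed members, all ribosomal proteins under other symbols and up to 3 genes of smallest p per other list. Groups by origin and place in the ribosome, and genes named for them or for their annotation, were added after values were seen.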

Additional observations from a re-analysis of the deposited data

How the results depend on the processing

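Results were recomputed under pseudocounts of 0.1 and 0.5, no filter, a mean of at least 5 FPKM, quantile and median-of-ratios scaling, limma without the trend, omission of each library, a replicate block and subunits by structure; omission of 46 small RNA entries was chosen after seeing the data. The number of large subunit genes called was 1, and it became 0 with no filter, after quantile normalization and in limma without the trend, 0 without each library in turn, 2 with the replicate block, and 3 at a mean of at least 5 FPKM or without small RNA entries. For the small subunit 0 became 1 in the last 2 of these. Over all tested genes 112 calls became 3 with no filter, 226 at 5 FPKM, 71 after quantile normalization, 2 without the trend, 12 to 16 without a library, 240 with the block and 369 without small RNA entries. The cause was not tested. Omission of a library leaves 1 residual degree of freedom, and so does the replicate block. Both subunit medians were negative under every one of these settings. The large subunit median was -0.038 at 5 FPKM, where 40 of 47 genes were tested, and -0.0614 to -0.0472 without a library. The small subunit median was -0.118 to -0.0582 without a library (lowest without vehicle replicate 2, highest without vehicle replicate 1) and -0.0635 by structure.

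Of 436 recomputed fold changes of 34 named members, 413 kept direction and side of the threshold and 9 changed sign, all of genes that were not called. Without each library in turn the log2 fold change ran from -0.203 to 0.0263 for Mrpl41, -0.243 to 0.0429 for Mrpl52, -0.0382 to 0.0027 for Mrps21, -0.16 to 0.259 for Mrps12, -0.0895 to 0.102 for Mrps18b, -0.0989 to 0.0419 for Mrps18c and -0.0899 to 0.168 for Mrps9. The sign turned without vehicle replicate 1 for the first 3, without vehicle replicate 2 for Mrps12, Mrps18b and Mrps9, without galectin-1 replicate 2 for Mrps18b (-0.03) and without galectin-1 replicate 1 for Mrps18c. Mrps18b was -0.0124 after quantile normalization. The labels link libraries of the same number by that number alone, and whether they were paired is unknown. Their deviations from the group means had a correlation of 0.0334 over 9334 genes. With 2 libraries per group, crossed numbers give the same value with the opposite sign (-0.0334), so this cannot decide on pairing. The replicate block, with 1 residual degree of freedom, added Mrpl27 (limma adjusted p = 0.0412) to Mrpl44 (0.0348). The unknown absolute depth limits what can be said of the lowest members.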
